A study of Mus musculus with 24 samples.

Results

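Of the 24 RNA-seq libraries of the series, the 8 described here are the 4 of CD31+ Kit+ CD45+ cells and the 4 of CD31+ Kit- CD41+ CD45- cells that were kept under the control antibody, set against each other across all genes. They were chosen by their sample titles alone, with no measured value in the rule, but with earlier results of these data known. All came from C57BL/6J mouse embryos of stage E10.5. The control antibody, an anti-human IgG, was injected into the heart of each embryo. A culture of 5 h followed at 37 °C under 5% CO2, and the medium held the same antibody (5 µg/ml), hydrocortisone (10 µM) and IL-3 (10 ng/ml). Both populations therefore share the antibody, the cytokine and the glucocorticoid, and untreated cells were not analysed here. Cells were freed with collagenase and sorted by flow cytometry, and their polyA RNA was amplified as cDNA before sequencing. The other libraries hold both populations under an antibody against Dll4, used at the end as a second set, and a Kit+ CD45- population. The labels name the tissue only as embryonic and give no number of embryos per library, nor do they say that replicates came from separate sorts. The p-values therefore measure the spread between libraries, which may be technical in part. For genes, that spread was estimated over all 24 libraries of the series.

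CD31 (Pecam1) lies on endothelium and on young blood cells, Kit is the receptor for stem cell factor, CD41 (Itga2b) is an integrin subunit of megakaryocytes and of the first blood progenitors, and CD45 (Ptprc) is the pan-leukocyte phosphatase. In the midgestation mouse embryo, endothelial cells of the large arteries turn into clusters of blood progenitors, which carry Kit and then gain CD45. CD41 without Kit and CD45 also marks cells of the megakaryocyte and primitive red cell lineages that the yolk sac made earlier. The transcription factors of the GATA family drive red cell and megakaryocyte genes, whereas PU.1 drives myeloid genes.

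The gene starts of these lineages can be read beside the values. Promoters of 300 bases, 250 before and 50 after the start, came from RefSeq on GRCm38.p6. They covered 10838 of the 15618 genes tested, with 13865 promoters in all, since 2211 genes had more than 1. The letters GAGGAAG, a core of the PU.1 motif, stood on either strand in 19.1% of the 1756 promoters of genes that were higher in Kit+ CD45+ cells past a fold of 1.5, in 11.7% of the 1424 promoters of genes that were lower, and in 13.8% of all. The GATA letters, AGATAA or TGATAA, stood in 12.1% of promoters of higher genes, 13.7% of lower ones and 11% of all. The AP-1 letters TGAGTCA stood in 4.73% of promoters of higher genes, 5.27% of lower ones and 3.78% of all. Genes of 1 chromosome were left out of the next counts and of the printed promoters. Of the other platelet genes named by rule, called lower and with a promoter in the table, 3 of 14 held the GATA letters. Of the myeloid genes named by rule and called higher, 5 of 10 held the PU.1 letters. Printed here, with the match in capitals, are the 2 platelet and the 2 myeloid promoters of largest fold change among these. Gp6 encodes the collagen receptor of platelets (chr7:4397695-4397994, minus strand), and its match begins 144 bases before the start. F2rl2 encodes a thrombin receptor (chr13:95696670-95696969, plus strand), with the match 95 bases before the start; directly before it stand the PU.1 letters (102 bases before the start), and further on the AP-1 letters (54 bases before the start), both in lower case. Ctss encodes a lysosomal protease of antigen-presenting cells (chr3:95526536-95526835, plus strand), and its match, on the other strand, begins 1 base before the start. C1qc encodes a chain of the complement protein C1q (chr4:136892865-136893164, minus strand), with the match on the other strand 194 bases before the start. A match is a run of letters in the window and no evidence of binding.
Gp6: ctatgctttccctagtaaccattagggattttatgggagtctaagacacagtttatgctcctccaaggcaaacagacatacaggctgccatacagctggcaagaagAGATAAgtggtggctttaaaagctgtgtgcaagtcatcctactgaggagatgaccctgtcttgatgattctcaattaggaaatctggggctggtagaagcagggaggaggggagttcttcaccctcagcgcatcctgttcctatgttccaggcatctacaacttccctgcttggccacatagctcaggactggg
F2rl2: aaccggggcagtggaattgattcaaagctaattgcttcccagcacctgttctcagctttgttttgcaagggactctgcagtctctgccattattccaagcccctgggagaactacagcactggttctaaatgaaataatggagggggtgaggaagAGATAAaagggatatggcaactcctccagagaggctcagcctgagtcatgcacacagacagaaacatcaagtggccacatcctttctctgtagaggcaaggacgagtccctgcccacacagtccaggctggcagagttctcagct
Ctss: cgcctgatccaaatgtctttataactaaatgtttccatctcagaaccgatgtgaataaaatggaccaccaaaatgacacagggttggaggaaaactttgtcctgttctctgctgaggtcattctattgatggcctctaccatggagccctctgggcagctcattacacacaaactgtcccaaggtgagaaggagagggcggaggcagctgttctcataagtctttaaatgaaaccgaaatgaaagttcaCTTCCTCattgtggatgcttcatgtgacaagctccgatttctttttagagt
C1qc: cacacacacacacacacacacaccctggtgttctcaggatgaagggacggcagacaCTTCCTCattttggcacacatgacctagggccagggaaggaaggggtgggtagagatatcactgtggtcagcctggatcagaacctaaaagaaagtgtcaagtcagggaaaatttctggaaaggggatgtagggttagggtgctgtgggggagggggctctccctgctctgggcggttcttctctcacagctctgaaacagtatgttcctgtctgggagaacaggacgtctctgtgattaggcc

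Library totals were 9112568 to 10994775 counts in Kit+ CD45+ cells and 9723206 to 11379830 in Kit- CD41+ cells, as Kit- CD41+ CD45- cells are called from here on. Levels are in CPM, counts scaled to the library total after TMM normalization. The first principal component held 74.2% of the variance and parted the populations, and the correlation of log2 CPM between libraries was 0.946 to 0.982 within Kit+ CD45+ cells, 0.973 to 0.980 within Kit- CD41+ cells and 0.841 to 0.871 between them. Kit+ CD45+ replicate 1 stood apart. On the second component (9.59%) it lay at -65.5, and the other 3 of its group at 12.6 to 27.98. Its macrophage genes were low. Leaving it out moved the counts of called genes in a list by at most 2 in either direction, except in the lists for which both counts are given. The filter on low counts then kept 16017 genes, so that the number of list members tested can differ as well. The 50 most abundant genes took 11.2 to 12.8% of the counts in Kit+ CD45+ libraries and 19.8 to 25.7% in Kit- CD41+ libraries, with no overlap (exact two-sided permutation p = 0.0286, the smallest that 4 against 4 allows; 0.114 adjusted over 4 library measures). Globin genes alone took 0.00870 to 0.0218% of the counts in Kit+ CD45+ libraries and 4.18 to 9.79% in Kit- CD41+ libraries. Totals, genes detected and the share of mitochondrial messenger RNA did not differ beyond the spread of the libraries (exact permutation p = 0.629, 0.371 and 0.143).

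**Figure D1:**
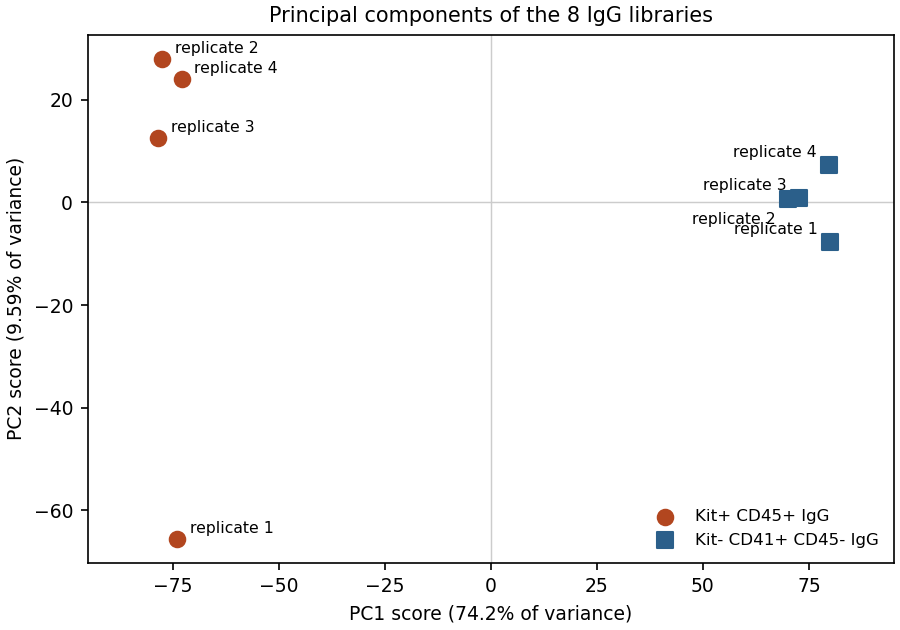
Scores of the 8 IgG libraries on the first 2 principal components of log2 CPM; each point is a library, with its replicate number. The first axis separates the 4 Kit+ CD45+ libraries (-78.4 to -72.8) from the 4 Kit- CD41+ libraries (70.1 to 80.0), and the second sets Kit+ CD45+ replicate 1 (-65.5) apart from the other 7.

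Across all genes, 19.7% of the 15618 tested were higher (3082 genes) and 17.5% were lower (2733 genes) in Kit+ CD45+ cells at an adjusted p under 0.05 in edgeR's quasi-likelihood test. A test against a fold of 1.5 called 12.1% higher (1890 genes) and 9.91% lower (1547 genes). Without Kit+ CD45+ replicate 1, which leaves fewer libraries, the counts were 2808 and 2375, and 1798 and 1378 past the fold. Fold changes are given on the log2 scale as Kit+ CD45+ over Kit- CD41+ cells with their standard error (SE), so a negative value means lower in Kit+ CD45+ cells. The median log2 fold change over all genes was 0.05 and the median absolute one 0.58. Among named protein-coding genes with at least 20 CPM, no overlap and the largest fold changes, the higher ones were leukocyte and macrophage genes: Ccl3, Ccl4, Ptprc, Ly86, Msr1, Ms4a6c, C1qa, Ccl6, Clec4n, Igsf6, Il1rn and Ctss. The lower ones held the platelet genes Cd226, Gp6, Ly6g6f, G6b and Tubb1, the serotonin transporter Slc6a4, the G protein subunit Gnaz, the heme enzyme Alas2, the protease inhibitor Serpinb2, the glutathione transferase Gstt1 and the steroid dehydrogenases Hsd3b1 and Hsd3b6. The last 2 are near-identical neighbours between which reads may be shared, so each alone is uncertain. No count of Hsd3b1 was found in Kit+ CD45+ cells, against 41.0, 19.7, 33.7 and 54.7 CPM in Kit- CD41+ libraries (at least 161-fold lower, from a floor of 3 counts per library). Serpinb2 had 0, 0, 0.0762 and 0 CPM in Kit+ CD45+ libraries, against 43.3, 27.4, 74.5 and 77.3 CPM in Kit- CD41+ libraries.

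The transcripts of Ptprc, Kit and Itga2b followed the gates, and in each of these and in Pecam1 the 4 libraries of one population lay apart from the 4 of the other. Ptprc (chromosome 1, 138062861 to 138175708, mm10) stood at 55.1, 104, 53.0 and 117 CPM in the Kit+ CD45+ libraries and had no count in any Kit- CD41+ library, at least 285-fold higher. Kit stood at 76.1, 46.9, 74.6 and 45.4 CPM in Kit+ CD45+ libraries and 2.14, 5.22, 4.91 and 3.11 CPM in Kit- CD41+ libraries. Itga2b stood at 13.4, 16.4, 11 and 17.4 CPM in Kit+ CD45+ libraries and 755, 551, 488 and 366 CPM in Kit- CD41+ libraries (log2 fold change -5.21, SE 0.43), so CD41 message was low in Kit+ CD45+ cells and not absent. Pecam1, on which both gates were positive, still differed, with 263, 295, 269 and 174 CPM in Kit+ CD45+ libraries against 75.8, 71.1, 70.1 and 51.9 CPM in Kit- CD41+ libraries (log2 fold change 1.90, SE 0.28, adjusted p = 1.06e-05). Kitl, the ligand of Kit, was also higher, by 3.05 (SE 0.54).

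Kit- CD41+ cells carried the messages of most platelet receptors listed. Of 23 platelet receptors and their subunits, 19 were lower in Kit+ CD45+ cells, 1 was higher and 3 did not pass (median log2 fold change -4.18), against 17.5% lower among all genes. The list's summed level was 697 to 1040.2 CPM in Kit+ CD45+ libraries and 13844 to 14269 CPM in Kit- CD41+ libraries. In sorted bulk cells, fewer cells of a type and less RNA per cell cannot be told apart. All gene lists were chosen with earlier results of these data known. Their shares are set beside those of all genes as a description, not as a test. Cd226, an adhesion receptor of platelets and T cells, had no count in Kit+ CD45+ libraries, against 162, 212, 160.4 and 234 CPM in Kit- CD41+ libraries (at least 831-fold lower). Gp6, the collagen receptor, had 0, 0, 0.305 and 0 CPM in Kit+ CD45+ libraries and 158, 151, 145 and 171 CPM in Kit- CD41+ libraries. F2rl2 had 1.4, 7.11, 8.22 and 7.35 CPM in Kit+ CD45+ libraries and 3267, 2670.2, 2981 and 3020.5 CPM in Kit- CD41+ libraries. In each of these 3 genes the Kit- CD41+ libraries lay close together and far above every Kit+ CD45+ library. Gp1bb, a chain of the receptor for von Willebrand factor, was lower (-8.82, SE 0.76), and so was Treml1, a receptor of platelet alpha granules (-8.44, SE 0.72). Cd36, a scavenger receptor of platelets, macrophages and capillaries, went the other way, with 2.53, 82.9, 29.4 and 54.2 CPM in Kit+ CD45+ libraries and 0, 1.51, 1.20 and 0.777 CPM in Kit- CD41+ libraries (log2 fold change 5.59, SE 0.85). Replicate 1 was the lowest of the Kit+ CD45+ libraries in it. P2ry12, the ADP receptor of platelets and microglia, did not pass (-0.28, SE 0.76), nor did Selp, the selectin of platelets and endothelium (-0.26, SE 0.60).

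What platelets store and release followed. Of 23 granule and release genes, 16 were lower in Kit+ CD45+ cells, 1 was higher and 6 did not pass (median -2.14). Pf4, the chemokine platelet factor 4, stood at 4.46, 172, 128 and 139 CPM in Kit+ CD45+ libraries and 11275, 12336, 14306 and 16010.3 CPM in Kit- CD41+ libraries (log2 fold change -6.92, SE 0.83). Replicates 2 to 4 of Kit+ CD45+ cells thus held far more Pf4 than replicate 1, and far less than any Kit- CD41+ library. Ppbp, another platelet chemokine (-8.14, SE 1.39), and Thbs1, thrombospondin 1 (-6.53, SE 0.47), were lower. So were Rab27b, which docks dense granules (-6.43, SE 0.43), and coagulation factor F5 (-4.52, SE 0.43). Vwf, which platelets and endothelium both make, was lower too (-2.17, SE 0.27), at 39.6, 30.3, 35.6 and 29.0 CPM in Kit+ CD45+ libraries and 174, 143, 159 and 131 CPM in Kit- CD41+ libraries. The exception was Sparc, a matrix protein of platelets, endothelium and stroma, at 457, 767, 604 and 507 CPM in Kit+ CD45+ libraries and 25.8, 71.4, 72.0 and 40.1 CPM in Kit- CD41+ libraries (log2 fold change 3.48, SE 0.31). Among those that did not pass were Slc18a2, the monoamine carrier of dense granules (-0.34, SE 0.18), and Angpt1, a ligand of the Tek receptor (0.42, SE 0.31).

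The machinery that links integrins to actin and shapes the megakaryocyte was lower for 20 of 21 genes, none was higher, and 1 did not pass (median -2.52). Tubb1, the tubulin of the platelet marginal band, had 0, 1.36, 0 and 0 CPM in Kit+ CD45+ libraries and 634, 549.9, 414 and 422 CPM in Kit- CD41+ libraries. Rap1b, the small GTPase that switches on the platelet integrin, had 580.0, 1099.9, 835 and 941 CPM in Kit+ CD45+ libraries and 8818, 8297, 8517 and 8531 CPM in Kit- CD41+ libraries (log2 fold change -3.31, SE 0.26, adjusted p = 6.33e-10). Its activator Rasgrp2 (-4.06, SE 0.30), the integrin activator Fermt3 (-3.92, SE 0.47) and the myosin light chain Myl9 (-5.86, SE 0.49) were lower. Gsn, which severs actin filaments, did not pass (-0.44, SE 0.35). Of 20 integrin subunits, 5 were higher (25%, against 19.7% of all genes), 6 were lower (30%, against 17.5%) and 9 did not pass. Itgb3, the partner of CD41, was lower (-5.49, SE 0.36), whereas Itga4, Itga9, Itga1 and Itga3 were higher by 2.14, 3.92, 4.01 and 3.19. The common beta subunit Itgb1 had a log2 fold change of -0.02 (SE 0.18). Of 22 tubulin genes, 12 were lower (54.5%, against 17.5% of all genes), among them Tuba4a (-3.88) and Tuba8 (-2.46), and Tubb6 was higher (1.59, SE 0.30). Tubulin genes are alike in sequence, and how reads were split among them is not given in the sources used here.

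Red cell transcripts were scarce in Kit+ CD45+ libraries, which held 70.6 to 159.7 CPM of summed globin message, against 40658 to 105630.0 CPM in Kit- CD41+ libraries. All 9 globin genes that passed were lower in Kit+ CD45+ cells, of 10 tested (median -9.23, or -7.98 with genes at 0 counts set to their bound). Hbb-y, an embryonic beta-like globin, stood at 115, 34.0, 55.3 and 35.7 CPM in Kit+ CD45+ libraries and 18054, 18266, 34927 and 44823 CPM in Kit- CD41+ libraries. Hbb-bh1, also embryonic and beta-like, was lower (-9.71, SE 0.84), as was the alpha-like Hba-x. The adult alpha-globins Hba-a1 and Hba-a2 are near-identical and were not read singly. Alas2, the first enzyme of red cell heme synthesis, had 0.0665, 0.681, 0.762 and 0.896 CPM in Kit+ CD45+ libraries and 311, 252, 439 and 488 CPM in Kit- CD41+ libraries. Of 20 heme and iron genes, 12 were lower (60%, against 17.5% of all genes) and 2 higher (10%, against 19.7%), with a median of -1.09. Without Kit+ CD45+ replicate 1 the counts were 11 and 2. The lower ones included Fech, which inserts the iron (-2.59, SE 0.30), the mitochondrial iron carrier Slc25a37 (-2.20), Urod (-2.10) and Uros (-2.09). The 2 higher ones handle iron on the recycling side: Hmox1, which opens heme (73.6, 248, 182 and 184 CPM in Kit+ CD45+ libraries, against 33.0, 19.2, 31.2 and 17.0 CPM in Kit- CD41+ libraries), and Slc40a1, the iron exporter ferroportin (4.49, SE 0.65). Both are also made by macrophages, whose summed marker level was 372 to 3976 CPM in Kit+ CD45+ libraries and 644 to 888 CPM in Kit- CD41+ libraries, and whose part in this result was not tested. In Kit- CD41+ libraries most of that sum was 1 gene, Fcer1g, described below. Of 19 red cell membrane genes, 17 were lower, 1 was higher and 1 did not pass (median -4.07). The anion exchanger Slc4a1 had no count in Kit+ CD45+ libraries (at least 31.8-fold lower). The higher one was the glucose carrier Slc2a1 (0.92, SE 0.27; 0.68, adjusted p = 0.0553, without Kit+ CD45+ replicate 3).

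The transcription factors of blood differed in both directions. Of 25, 8 were higher in Kit+ CD45+ cells (32%, against 19.7% of all genes), 11 were lower (44%, against 17.5%) and 6 did not pass (median -0.48). Among the lower ones were several known from megakaryocytes and red cells. Gata1, a regulator of both, stood at 0, 24.4, 16.1 and 19.1 CPM in Kit+ CD45+ libraries and 448, 379.9, 413 and 324 CPM in Kit- CD41+ libraries (log2 fold change -4.72, SE 0.61; -4.30 without replicate 1, where it had no count). Also lower were Gfi1b, a repressor needed for red cells and megakaryocytes (-3.75, SE 0.30), the Gata1 cofactor Zfpm1 (-2.78, SE 0.29), Nfe2, which drives platelet release (-2.67, SE 0.23), and Tal1 (-2.52, SE 0.26). Among the higher ones was Gfi1, the paralog of Gfi1b, at 22.8, 4.92, 15.8 and 9.95 CPM in Kit+ CD45+ libraries and no count in any Kit- CD41+ library (at least 46.3-fold higher). So the 2 paralogs differed in opposite directions in the same libraries. Hlf, a factor of stem cells, had 22.4, 5.90, 18.1 and 9.95 CPM in Kit+ CD45+ libraries and 0, 0, 0.301 and 0 CPM in Kit- CD41+ libraries. That is a ratio of 203 (95% counting interval 69.3 to 988) from 3 counts in Kit- CD41+ libraries. Myb was higher by 2.44 (SE 0.49), Mecom by 2.61 (SE 0.41) and Ikzf1 by 3.02 (SE 0.32). Runx1, which starts blood formation from endothelium, differed little and was lower, at 116, 54.5, 84.0 and 96.6 CPM in Kit+ CD45+ libraries against 172, 148, 136 and 137 CPM in Kit- CD41+ libraries (log2 fold change -0.75, SE 0.23, adjusted p = 0.0132; -0.58, adjusted p = 0.0572, without Kit+ CD45+ replicate 2). Its partner Cbfb was higher (1.43, SE 0.22). Lmo2, Mef2c, Ldb1 and Gata2 did not pass, with log2 fold changes of -0.33, -0.26, 0.31 and -0.62.

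Most stem and progenitor genes were higher in Kit+ CD45+ cells, 17 of 27, with 5 lower and 5 that did not pass (median 2.12, against 19.7% higher and a median of 0.05 among all genes). Flt3, the receptor of multipotent and lymphoid progenitors, had 24.6, 8.86, 12.6 and 5.29 CPM in Kit+ CD45+ libraries and no count in Kit- CD41+ libraries (at least 44.4-fold higher). Cd34 stood at 1068, 594, 802 and 636 CPM in Kit+ CD45+ libraries and 36.1, 22.0, 38.4 and 7.77 CPM in Kit- CD41+ libraries (log2 fold change 4.89, SE 0.40), and Cd93 was higher by 4.69 (SE 0.35). Cd34 and Cd93 are also carried by endothelium. Replicate 1 was the highest Kit+ CD45+ library in Flt3, Cd34, Gfi1 and Hlf, as it was the lowest in nearly all macrophage genes. Of 5 lower members, Mllt3 was the one of largest fold change, at 14.0, 16.2, 17.5 and 12.6 CPM in Kit+ CD45+ libraries and 169, 135, 138 and 178 CPM in Kit- CD41+ libraries (log2 fold change -3.36, SE 0.28). It encodes a chromatin reader known from human stem cells and from megakaryocyte and red cell fate. Meis1, a partner of Hox proteins, was lower (-1.90, SE 0.23). Lin28b, the fetal let-7 inhibitor, did not pass (0.45, SE 0.23). Among 28 Hox genes, 9 were higher (32.1%, against 19.7% of all genes) and 9 lower (32.1%, against 17.5%). The higher ones lay in the A, B and D clusters, among them Hoxa9 (80.8, 16.4, 39.2 and 35.3 CPM in Kit+ CD45+ libraries, against 9.50, 8.94, 10.2 and 9.99 CPM in Kit- CD41+ libraries), Hoxa5 (2.02), Hoxb5 (2.02) and Hoxd8 (2.19). No C cluster gene was higher, and 5 of the 6 tested were lower, such as Hoxc6 (-2.74, SE 0.78). The C cluster levels were low, and no library exceeded 10.9 CPM for a gene of it. Without Kit+ CD45+ replicate 1 the Hox counts were 8 higher and 5 lower.

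Myeloid genes set Kit+ CD45+ cells apart. Of 15 myeloid transcription factors, 11 were higher, 2 lower and 2 did not pass (median 2.83); without Kit+ CD45+ replicate 1, 14 were higher and 2 lower of 16 tested. Spi1, which encodes PU.1, stood at 316, 244, 309 and 361 CPM in Kit+ CD45+ libraries and 56.6, 38.5, 49.7 and 29.5 CPM in Kit- CD41+ libraries (log2 fold change 2.82, SE 0.26, adjusted p = 1.07e-08). Irf8, its partner in monocytes, stood at 49.2, 64.5, 50.3 and 65.0 CPM in Kit+ CD45+ libraries and 0, 1.06, 0 and 0.222 CPM in Kit- CD41+ libraries. These 2 factors were alike in all 4 Kit+ CD45+ libraries, replicate 1 included. Maf, a factor of mature macrophages, was not, with 2.13, 78.6, 36.3 and 68.9 CPM in Kit+ CD45+ libraries and 0.855, 0.708, 1.90 and 1.44 CPM in Kit- CD41+ libraries. Creg1 (-1.44) and Zeb2 (-1.30) were lower. Of 16 neutrophil and monocyte progenitor genes, 10 were higher, 1 was lower and 5 did not pass (median 4.96, or 3.26 with bounds). Csf3r, the receptor for G-CSF, had 7.78, 8.33, 8.68 and 10.7 CPM in Kit+ CD45+ libraries and no count in Kit- CD41+ libraries (at least 30.7-fold higher). Mpo, the peroxidase of neutrophil granules, had 159, 139, 209 and 452 CPM in Kit+ CD45+ libraries and 0.0855, 9.83, 0 and 11 CPM in Kit- CD41+ libraries. Fcgr3, an Fc receptor, was higher by 7.64 (SE 0.62). F13a1, a transglutaminase of monocytes and platelets, had 2.13, 262, 131 and 166 CPM in Kit+ CD45+ libraries and 104, 119, 95.2 and 89.7 CPM in Kit- CD41+ libraries and did not pass. In a fit of the 8 compared libraries alone, 6 of these genes were higher.

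Among 24 macrophage genes tested, Kit+ CD45+ cells had 22 higher and none lower, and 2 did not pass (median 7.26, or 6.19 with bounds). Over all settings run, 17 to 23 were higher. Without Kit+ CD45+ replicate 1, 23 were higher and none lower. C1qa, a chain of C1q, stood at 7.45, 174, 117 and 174 CPM in Kit+ CD45+ libraries and 0, 0, 0 and 0.111 CPM in Kit- CD41+ libraries. Msr1, a scavenger receptor, stood at 0.0665, 91.0, 47.3 and 47.6 CPM in Kit+ CD45+ libraries and had no count in Kit- CD41+ libraries. Replicate 1 held both far below the other 3 libraries of its group. Its C1qa lay above every Kit- CD41+ library, whereas its Msr1 lay below the level of 3 counts (0.231 CPM), at which it cannot be told from the Kit- CD41+ libraries. Ctss and C1qc, which hold the PU.1 letters in their promoters, had 25.7, 143, 82.9 and 123 CPM and 22.1, 388, 286 and 402 CPM in Kit+ CD45+ libraries, against 0, 0, 0.200 and 0 CPM and 0.0855, 0.177, 0.501 and 0 CPM in Kit- CD41+ libraries. Clec4n, a lectin of macrophages, was at least 82.1-fold higher. In Kit- CD41+ libraries 6 of the 25 members had no count at all, and most of the summed level was that of 1 gene. This was Fcer1g, the common gamma chain of Fc receptors that platelets also use with Gp6, which had 69.3, 429.9, 290.4 and 429 CPM in Kit+ CD45+ libraries and 551, 608, 630.4 and 739 CPM in Kit- CD41+ libraries and did not pass (log2 fold change -1.05, SE 0.42, adjusted p = 0.0547). Without Kit+ CD45+ replicate 2 or 4, the adjusted p of Fcer1g was 0.0413 or 0.0411. Lyz2, lysozyme, did not pass (0.93, SE 0.38), and did without replicate 1 (1.25, adjusted p = 0.00264).

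Chemokines were higher with the macrophage genes. Of 19 chemokines and their receptors, 14 were higher in Kit+ CD45+ cells and 5 did not pass (median 8.26, or 5.99 with bounds). In a fit of the 8 compared libraries alone, 9 were higher. Ccl3 stood at 156, 517, 303 and 440.2 CPM in Kit+ CD45+ libraries and 0, 0, 0 and 0.111 CPM in Kit- CD41+ libraries, a ratio of 14433 (95% counting interval 2590.1 to 570091) from 1 count in Kit- CD41+ libraries. Ccl4 stood at 57.6, 572, 218 and 254 CPM in Kit+ CD45+ libraries and 0, 0, 0 and 0.111 CPM in Kit- CD41+ libraries. Ccl2, which draws monocytes, had 0, 278, 197 and 292 CPM in Kit+ CD45+ libraries and no count in Kit- CD41+ libraries (at least 664-fold higher). Ccl3 and Ccl4 were thus present in all 4 Kit+ CD45+ libraries, and Ccl2 and Ccl12 in 3 of 4, with no count in replicate 1. The stromal chemokine Cxcl12 did not pass (-0.04, SE 0.63), nor did its scavenger Ackr3 (-1.06, SE 0.49).

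Among 24 cytokine receptors, 18 were higher, 3 were lower and 3 did not pass (median 1.42); without replicate 1 of Kit+ CD45+ cells, 15 were higher and 3 lower. Among the lower ones were Epor, the erythropoietin receptor, and Il10ra (-3.09, SE 0.32). The higher ones with the largest fold changes were Flt3, Csf3r and the TNF receptor Tnfrsf1b. Csf1r, the receptor of macrophages, had 6.52, 66.0, 46.2 and 68.9 CPM in Kit+ CD45+ libraries and 1.71, 0.974, 2.70 and 1.55 CPM in Kit- CD41+ libraries, and Tnfrsf1a, the other TNF receptor, was higher by 4.32 (SE 0.41). IL-3 was in the medium of both populations. Its receptor chain Il3ra did not pass (4.52, 3.03, 2.67 and 2.15 CPM in Kit+ CD45+ libraries, 2.31, 4.25, 1.6 and 1.11 CPM in Kit- CD41+ libraries). The other chains in the list, Csf2rb and Csf2rb2, are not described here, so Il3ra does not stand for the whole receptor.

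Leukocyte signalling and actin genes did not move as a block. Of 35, 14 were higher (40%, against 19.7% of all genes), 12 were lower (34.3%, against 17.5%) and 9 did not pass (median 0.16). Higher were Ptprc, the oxidase subunit Cybb (at least 30.7-fold), Cd53 (7.97, SE 0.80), Cd52 (6.42), the selectin ligand Selplg (5.71) and the actin bundler Lcp1 (220.5, 319.6, 216 and 285 CPM in Kit+ CD45+ libraries, against 4.02, 8.15, 5.31 and 5.10 CPM in Kit- CD41+ libraries). Lower were the adaptors Fyb (26.9, 81.9, 40.7 and 80.7 CPM in Kit+ CD45+ libraries, against 501, 527, 486 and 496 CPM in Kit- CD41+ libraries) and Lcp2 (-2.54, SE 0.25) and the kinase Btk (-2.36, SE 0.36), which platelets use as well. Coro1a, an actin regulator, had 499, 482, 440.1 and 697 CPM in Kit+ CD45+ libraries and 491, 462, 405 and 434 CPM in Kit- CD41+ libraries, and Laptm5 and Ptpn7 did not pass either (-0.19 and -0.28). Of 17 lymphoid genes listed, 15 were in the count data and 9 passed the filter on low counts. Of these 9, 8 were higher and 1 did not pass. That share leaves out the members that the filter removed, so it does not stand for the whole list. Lck, a T cell kinase, had 36.3, 33.8, 42.9 and 27.2 CPM in Kit+ CD45+ libraries and 0.77, 2.30, 3.21 and 3.22 CPM in Kit- CD41+ libraries, and the factors Tcf7 and Ebf1 were higher by 2.10 and 1.42. The defining lymphocyte genes were near 0, with no count of Rag1 or Rag2 in any of the 8 libraries. Of 4 mast cell and basophil genes tested, Cpa3 (0, 9.76, 12.6 and 61.0 CPM in Kit+ CD45+ libraries, 1.37, 0, 0 and 0.666 CPM in Kit- CD41+ libraries) and Hdc (5.12, SE 0.94) were higher.

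**Figure D2:**
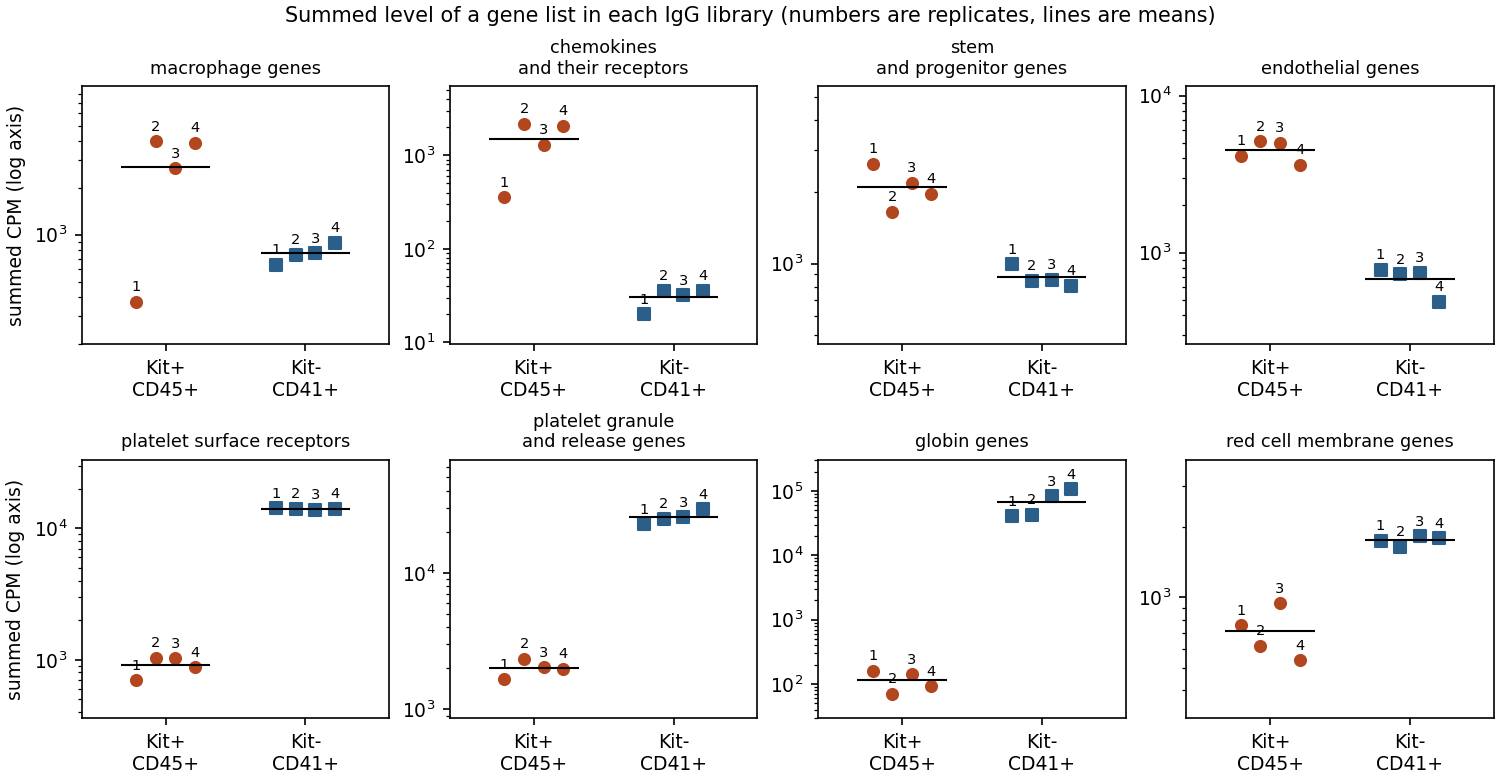
Summed CPM of 8 gene lists (log axis) in the 4 Kit+ CD45+ libraries (left in each panel) and the 4 Kit- CD41+ libraries (right); points are libraries with their replicate number and lines are means. Platelet, globin and red cell membrane sums separate the populations one way and chemokine, stem cell and endothelial sums the other, while the macrophage sum of Kit+ CD45+ replicate 1 (372 CPM) lies below all Kit- CD41+ libraries. In Kit- CD41+ libraries most of the macrophage sum was Fcer1g, which platelets also use and which did not pass the test.

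In Kit+ CD45+ cells, 28 of 30 endothelial genes were higher, none was lower and 2 did not pass (median 4.13). All 30 had a positive fold change. Their summed level was 3636 to 5120.3 CPM in Kit+ CD45+ libraries and 487 to 776 CPM in Kit- CD41+ libraries, and replicate 1 lay inside its group. Cdh5, the cadherin of endothelial junctions, had 27.0, 31.9, 39.1 and 22.1 CPM in Kit+ CD45+ libraries and 0, 0.974, 1.20 and 0.111 CPM in Kit- CD41+ libraries (log2 fold change 5.68, SE 0.53). Cldn5, a tight junction protein, was higher by 6.76 (SE 0.74), and the surface proteins Adgrl4 and Clec14a by 7.08 (SE 0.74) and 6.93 (SE 0.73). Sox18, a transcription factor of endothelium, had 96.5, 134, 167 and 102 CPM in Kit+ CD45+ libraries and 0.0855, 2.74, 1.20 and 0.888 CPM in Kit- CD41+ libraries. Kdr, the main receptor of Vegfa, differed less, with 80.7, 171, 163 and 88.4 CPM in Kit+ CD45+ libraries and 45.3, 44.5, 47.9 and 31.8 CPM in Kit- CD41+ libraries (log2 fold change 1.57, SE 0.23). The 2 that did not pass were Esam, a junction protein that platelets carry too (0.65, SE 0.28), and Tie1 (0.70, SE 0.29). Endothelial cells sorted with the Kit+ CD45+ gate and endothelial message within CD45+ cells cannot be told apart here.

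Of 18 arterial genes, 11 were higher and 7 did not pass (median 1.91), while 10 of 12 venous, lymphatic and scavenger genes were higher, 1 was lower and 1 did not pass (median 3.63). Acvrl1, a BMP9 receptor, was higher by 5.83 (SE 0.73) and Nrp1, a semaphorin and Vegfa receptor, by 3.22 (SE 0.36). The connexin Gja4, found in arteries and platelets, did not pass (-1.04, SE 0.42). On the venous and lymphatic side, Flt4, the receptor for Vegfc, had 17.9, 23.1, 24.5 and 10.0 CPM in Kit+ CD45+ libraries and 0.0855, 0, 0 and 0 CPM in Kit- CD41+ libraries, and Aplnr, the apelin receptor, was higher by 6.54 (SE 0.72). The scavenger receptor Stab2 had 9.45, 51.0, 13.6 and 10.1 CPM in Kit+ CD45+ libraries and 0.513, 0.177, 0.100 and 0.222 CPM in Kit- CD41+ libraries.

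Notch signalling, in which a ligand on one cell binds a receptor on the next and so lets proteases free the part that acts in its nucleus, is known to set arterial fate and the start of blood formation. Of 29 Notch genes, 11 were higher in Kit+ CD45+ cells (37.9%, against 19.7% of all genes), 4 were lower (13.8%, against 17.5%) and 14 did not pass (median 0.87). Among ligands, Dll4 had 16.3, 15.3, 21.6 and 8.25 CPM in Kit+ CD45+ libraries and 0, 0.708, 0.100 and 0 CPM in Kit- CD41+ libraries (log2 fold change 6.10, SE 0.87). Among receptors, Notch1 had 6.25, 14.7, 19.5 and 13.4 CPM in Kit+ CD45+ libraries and 0.77, 2.48, 1.4 and 2.11 CPM in Kit- CD41+ libraries, and was higher by 2.99 (SE 0.36). Mfng, a sugar transferase that tunes the receptor to its ligands, was higher by 3.02 (SE 0.31). Of the target genes, Hey1 was higher by 3.01 (SE 0.47), and Hes1 had 98.4, 62.7, 90.6 and 74.1 CPM in Kit+ CD45+ libraries and 6.16, 21.7, 29.6 and 14.2 CPM in Kit- CD41+ libraries (2.19, SE 0.31). Hes7, a relative of Hes1 known from the somite clock, went the other way, with 1.4, 0.227, 1.83 and 0.807 CPM in Kit+ CD45+ libraries and 23.1, 19.7, 20.6 and 14.9 CPM in Kit- CD41+ libraries (-4.18, SE 0.44). The populations did not overlap in Hes1 or Hes7. Psen2, a catalytic subunit of gamma-secretase, was lower (-1.08, SE 0.30), and Adam10 and Maml3 were among those that did not pass.

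**Figure D3:**
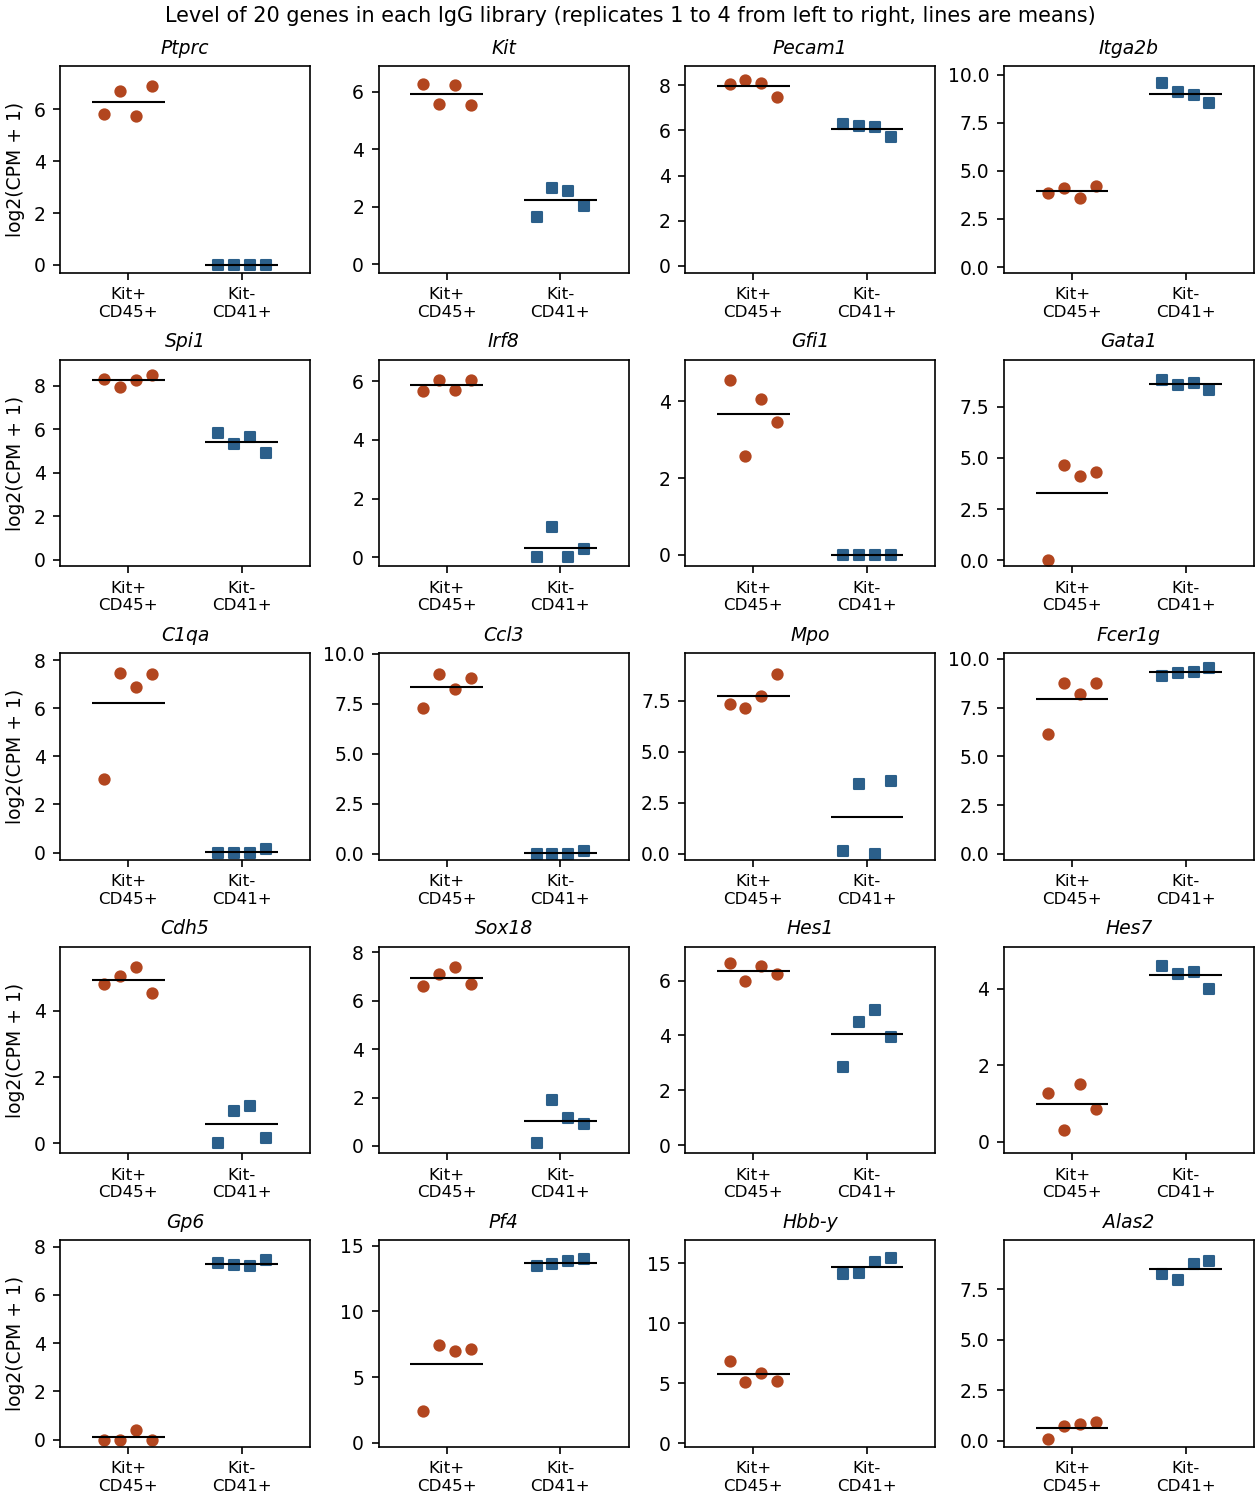
Level of 20 genes as log2(CPM + 1) in each of the 4 Kit+ CD45+ libraries (left) and the 4 Kit- CD41+ libraries (right); lines are means over 4 libraries. Fcer1g is the 1 gene shown that did not pass the test, and Kit+ CD45+ replicate 1, the leftmost point of its group, lies far below the other 3 for C1qa, Gata1 and Pf4.

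Of 22 genes that answer NF-kB and TNF signals, 13 were higher in Kit+ CD45+ cells, 1 was lower and 8 did not pass (median 1.53). Il1b, the cytokine interleukin 1 beta, had 42.8, 21.3, 19.0 and 6.81 CPM in Kit+ CD45+ libraries and 0.941, 0.177, 0.902 and 0.888 CPM in Kit- CD41+ libraries. Icam1, an adhesion molecule, was higher by 5.30 (SE 0.50) and the immune surface protein Cd83 by 6.14 (SE 0.97). Immediate early genes, which stimuli switch on within minutes, were higher for 11 of 19 and lower for none. Fos stood at 130.0, 381, 214 and 240.4 CPM in Kit+ CD45+ libraries and 35.3, 36.0, 52.8 and 47.4 CPM in Kit- CD41+ libraries, and Atf3 and Dusp1 were higher by 2.90 (SE 0.41) and 2.73 (SE 0.30). Jund, Junb and Fosb did not pass.

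Hydrocortisone was given to both populations. Of 12 glucocorticoid response genes, counting the receptor gene Nr3c1, 7 were higher in Kit+ CD45+ cells, 2 were lower and 3 did not pass (median 1.21). Untreated cells were not analysed, so whether the response to hydrocortisone differed was not tested. Sgk1, a kinase and a classic glucocorticoid target, had 158, 149.7, 157 and 127 CPM in Kit+ CD45+ libraries and 8.38, 11.4, 12.9 and 10.9 CPM in Kit- CD41+ libraries (log2 fold change 3.76, SE 0.34). Klf9 was higher by 2.86 (SE 0.59), the receptor's cochaperone Fkbp5 by 1.63 (SE 0.27) and the receptor itself, Nr3c1, by 1.30 (SE 0.30). The metallothioneins Mt2 (-3.55, SE 0.60) and Mt1 (-1.87, SE 0.54) were lower. Tsc22d3, another target, had 63.2, 89.0, 95.9 and 79.4 CPM in Kit+ CD45+ libraries and 90.9, 82.3, 92.2 and 77.1 CPM in Kit- CD41+ libraries and did not pass.

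Of 15 MHC genes, 8 were higher, 2 lower and 5 did not pass (median 0.68). Cd74, the invariant chain, had 9.78, 27.2, 13.3 and 12.3 CPM in Kit+ CD45+ libraries and no count in Kit- CD41+ libraries (at least 54.1-fold higher), and the immunoproteasome subunits Psmb8 and Psmb9 were higher by 4.39 and 4.90. H2-K1 was higher by 1.32 (SE 0.20), but class I genes are alike in sequence and each is uncertain alone. Of 17 interferon response genes, 4 were higher (23.5%, against 19.7% of all genes), 1 was lower (5.88%, against 17.5%) and 12 did not pass. Ifitm1, a membrane protein that blocks virus entry, had 339, 42.2, 317 and 173 CPM in Kit+ CD45+ libraries and 0.0855, 1.86, 3.61 and 5.33 CPM in Kit- CD41+ libraries. Isg15, a ubiquitin-like protein, had 0, 0.303, 0.228 and 0.179 CPM in Kit+ CD45+ libraries and 26.4, 10.3, 18.2 and 12.3 CPM in Kit- CD41+ libraries (log2 fold change -6.50, SE 0.70). Stat2 and Irf9 were among those that did not pass.

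Of 30 DNA replication genes, 4 were higher (13.3%, against 19.7% of all genes) and none was lower. The number higher ran from 2 to 8 over the settings run, with 8 under a replicate block, so the share lay on either side of that of all genes. The helicase subunit Mcm3 was higher by 0.73 (SE 0.22). Of 27 mitosis genes, 37% were higher (10 genes, against 19.7% of all genes), with Ect2 (1.33, SE 0.23) and Kif23 (1.05, SE 0.19) in the lead. Mki67, the proliferation antigen, was lower (-0.53, SE 0.19). Without Kit+ CD45+ replicate 1 its value was -0.45 (adjusted p = 0.0992 in edgeR). Without that library, 5 mitosis genes were higher and 0 lower. The number higher ran from 5 to 10 over the settings run, so this share also lay on either side of that of all genes. Of 20 G1 genes, 3 were higher (15%, against 19.7% of all genes) and 5 lower (25%, against 17.5%). The inhibitor Cdkn2d stood out among them, with 70.8, 70.6, 97.6 and 74.1 CPM in Kit+ CD45+ libraries and 721, 713, 738 and 704 CPM in Kit- CD41+ libraries (log2 fold change -3.20, SE 0.20, adjusted p = 2.83e-11). Ccnd3 was lower (-1.66, SE 0.21) and Cdk6 higher by 1.83 (SE 0.25). Of 22 BCL2 family and caspase genes, 9 were higher (40.9%, against 19.7% of all genes) and 3 lower (13.6%, against 17.5%). Bcl2l1, the survival factor of platelets and red cells, was lower (-1.48, SE 0.27), whereas Bcl2 (2.23, SE 0.42) and its antagonists Bcl2l11 (3.51, SE 0.40) and Pmaip1 (3.12, SE 0.53) were higher.

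Of 26 cholesterol genes, 15 were lower in Kit+ CD45+ cells, 2 were higher and 9 did not pass (median -0.65). The lower ones were enzymes of synthesis, such as Idi1 (6.79, 5.6, 6.40 and 9.68 CPM in Kit+ CD45+ libraries, 24, 23.7, 23.4 and 32.5 CPM in Kit- CD41+ libraries), Mvk (-1.51, SE 0.17), Fdps (-1.48) and Nsdhl (-1.36), and the sterol carrier Stard4 (-1.75). The 2 higher ones export cholesterol: Abca1 (8.98, 26.4, 23.4 and 17.6 CPM in Kit+ CD45+ libraries, 1.11, 0.797, 0 and 0.555 CPM in Kit- CD41+ libraries) and Abcg1 (1.51, SE 0.30). Lysosomal genes were higher for 17 of 33 and lower for 2 (median 0.82). The protease Ctsb had 355, 2689.8, 1824 and 2439.7 CPM in Kit+ CD45+ libraries and 165, 204, 237 and 225 CPM in Kit- CD41+ libraries, with replicate 1 again lowest, and Ctsh was higher by 4.35 (SE 0.43). BMP and TGF-beta genes were higher for 13 of 25 (52%, against 19.7% of all genes) and lower for 2 (8%, against 17.5%). The receptors Tgfbr2 (4.81, SE 0.39) and Eng (2.94, SE 0.40) were higher, and the ligand Tgfb1, stored in platelets, was lower (-1.67, SE 0.21).

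Few ribosomal protein genes were called. Of 79 ribosomal protein genes, 2.53% were higher and 5.06% lower (2 and 4 genes; 3 and 1 without Kit+ CD45+ replicate 1). Of 81 nuclear respiratory chain genes, 2 were higher and 12 lower (14.8%, against 17.5% of all genes), and the number lower ran from 6 to 28 over the settings run, with 6 without Kit+ CD45+ replicate 1 and 28 with a replicate block, so that the share lay below or above that of all genes depending on the setting. All 7 mitochondrial messenger RNAs tested had a negative fold change, and 6 passed, mt-Co1 with -0.74 (SE 0.21). Without Kit+ CD45+ replicate 1, 4 passed; over all settings run it was 2 to 6, the fewest without Kit+ CD45+ replicate 3. Fold changes are on the TMM scale. As shares of the raw totals, mitochondrial messenger RNAs took 0.463 to 0.580% in Kit+ CD45+ libraries and 0.556 to 0.607% in Kit- CD41+ libraries, so the populations overlapped. Of 25 glycolysis and hypoxia genes, 4 were higher (16%, against 19.7% of all genes) and 6 lower (24%, against 17.5%), among them the hexokinase Hk1 (-1.43, SE 0.24); without Kit+ CD45+ replicate 1, 3 were higher and 3 lower. Of 38 replication-dependent histone genes, 6 were lower (15.8%, against 17.5% of all genes) and none higher. Hist1h1c, a linker histone whose message can be polyadenylated, was lower (-3.69, SE 0.38).

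**Figure D4:**
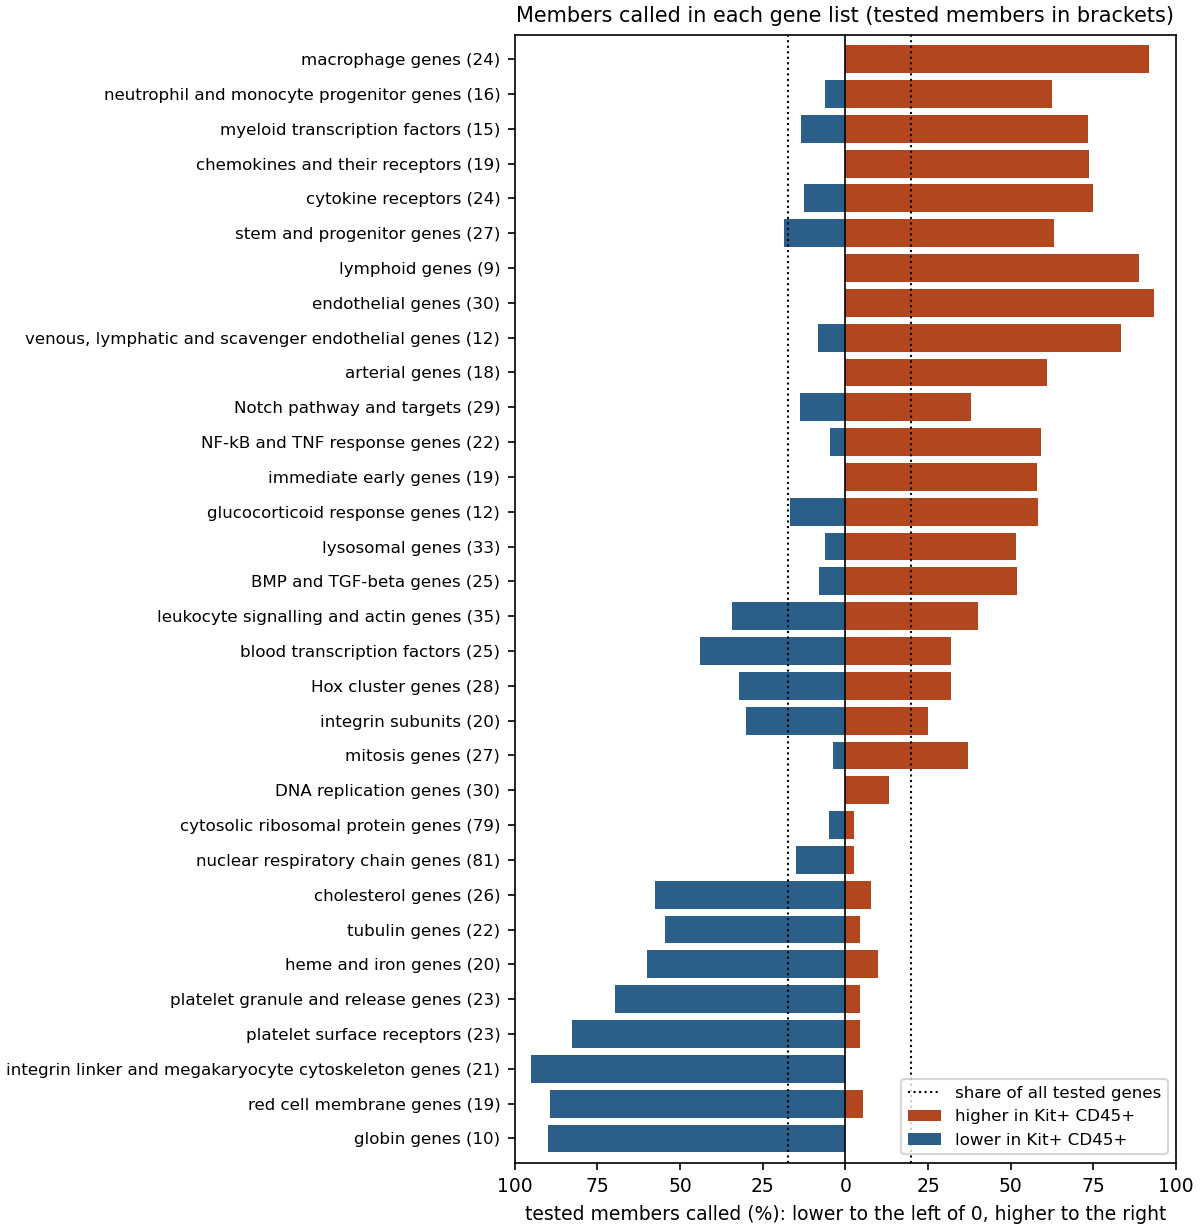
Share of the tested members of 32 gene lists that were called higher (right of 0) or lower (left of 0) in Kit+ CD45+ cells at an adjusted p under 0.05; bars start at 0, the number of tested members is in brackets and dotted lines mark the shares among all tested genes (19.7% and 17.5%). Macrophage, lymphoid (9 of 17 members tested) and endothelial lists reach to the right and platelet, red cell and cholesterol lists to the left. The leukocyte signalling and actin list reaches both ways, and ribosomal protein genes stay inside the dotted lines.

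Markers of other embryonic cells were checked in both populations. Of 12 germ cell genes tested, 2 were higher (16.7%, against 19.7% of all genes), 1 of them Prdm1, which is also a factor of immune cells. Pou5f1 and Rhox9 had no count in any of the 8 libraries. Of the 14 mesenchyme and smooth muscle genes tested, 4 were lower (28.6%, against 17.5% of all genes). These were Prrx1 (0, 1.44, 0.609 and 0.627 CPM in Kit+ CD45+ libraries, 7.36, 7.88, 8.51 and 15.4 CPM in Kit- CD41+ libraries), Twist1, Col3a1 and 1 other. Mest, an imprinted gene, was higher (2.18, SE 0.39), at 1313, 2141, 2155 and 1242 CPM in Kit+ CD45+ libraries and 198, 408, 591 and 312 CPM in Kit- CD41+ libraries. Mest made up most of the summed level of that list, which was 1348 to 2281 CPM in Kit+ CD45+ libraries and 301 to 922 CPM in Kit- CD41+ libraries, without overlap. Of 12 epithelial, liver bud and neural genes tested, 8 were lower and none higher. Krt8, a keratin, had 1.13, 0.454, 0.381 and 0.269 CPM in Kit+ CD45+ libraries and 2.57, 36.7, 31.5 and 5.55 CPM in Kit- CD41+ libraries. The summed level of the epithelial list was 15.9 to 66.3 CPM in Kit+ CD45+ libraries and 38.6 to 163 CPM in Kit- CD41+ libraries, so the populations overlapped, and the part of such cells in any result was not tested.

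The same populations under anti-Dll4, 4 libraries each that share no library with those above, gave a second measurement of the contrast. Both contrasts came from 1 fit of all 24 libraries, so their calls share its gene filter and its estimates of spread and are not independent tests. There Kit+ CD45+ cells had 20.4% of genes higher and 17.3% lower. Of the 3437 genes past a fold of 1.5 under IgG, 3427 had the same direction under anti-Dll4, and 3133 (91.2%) were called there. These genes were selected for their difference under IgG, so the shares do not extend to all genes. Over all genes tested, the log2 fold changes under the 2 antibodies correlated at 0.891 (Pearson). Under anti-Dll4, 22 macrophage genes were higher, as were 30 endothelial genes, 15 of the chemokines and 18 stem and progenitor genes, and 19 platelet receptors were lower. Some counts differed from those under IgG: 5 mitosis genes were higher under anti-Dll4 and 10 under IgG, 2 stem and progenitor genes were lower under anti-Dll4 and 5 under IgG, 2 mitochondrial messenger RNAs were lower under anti-Dll4 and 6 under IgG, and 1 macrophage gene was lower under anti-Dll4 and none under IgG. These differences between counts were not tested. Mean levels of Pf4, Spi1 and Flt3 kept their order. Under anti-Dll4, Pf4 averaged 211 CPM in Kit+ CD45+ libraries and 13395 CPM in Kit- CD41+ libraries. Spi1 averaged 301 CPM in Kit+ CD45+ libraries and 49.1 CPM in Kit- CD41+ libraries, and Flt3 11 CPM in Kit+ CD45+ libraries and 0 CPM in Kit- CD41+ libraries. Lyz2, which missed the threshold under IgG, was higher by 0.99 (adjusted p = 0.0413) under anti-Dll4. The difference of the contrast between the antibodies passed for 0.0064% of genes, that is 1 gene, in edgeR, at an adjusted p under 0.05. At an unadjusted p under 0.05 there were 499, and DESeq2 called 5. The 1 gene was Cacna2d3, a calcium channel subunit of low level. Under IgG it had 0.931, 0.151, 0.457 and 0.269 CPM in Kit+ CD45+ libraries and 1.71, 0.266, 1.30 and 1.11 CPM in Kit- CD41+ libraries (log2 fold change -1.22, SE 0.52, adjusted p = 0.0697), and under anti-Dll4 a mean of 0 CPM in Kit+ CD45+ libraries and 4.09 CPM in Kit- CD41+ libraries. Without any 1 of Kit+ CD45+ replicates 1 and 3 and Kit- CD41+ replicates 3 and 4, no gene passed, nor did any in a fit of the compared libraries only or with a replicate block.

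**Figure D5:**
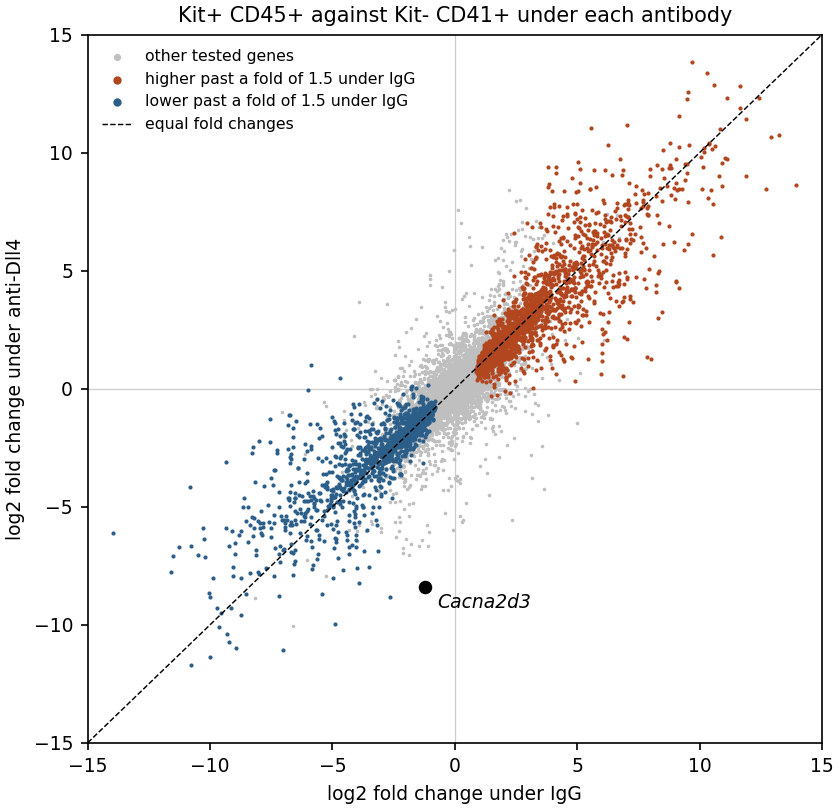
Log2 fold change of Kit+ CD45+ over Kit- CD41+ cells under IgG (x axis) and under anti-Dll4 (y axis) for the 15618 genes tested; each point is a gene, coloured where it passed a fold of 1.5 under IgG, and the dashed line marks equal values. Of the 3437 coloured genes 3427 lie in the same direction on both axes; Cacna2d3 (black) is the 1 gene whose contrast differed. Fold changes of genes with no count in a group are fitted values and no bounds.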

How the data were processed

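The authors deposited a table of raw counts per gene for 24 libraries (29716 genes), used here, and a log2 table (30202 genes) not used for tests; 1 column of the log2 table belongs to no listed sample and was left out. The submitters' processing notes name CASAVA 1.4, FastQC, STAR, HTSeq, DESeq2 and mm10. The log2 values equalled log2(count/size factor + 1) of the counts within 5.33e-14. Amplification by PCR without molecular identifiers means that counting intervals and floors cover counting error only. The depth was 9112568 to 11379830 counts in the 8 libraries.

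Counts were fitted with edgeR 4.0.16 (R 4.3.3; quasi-likelihood F-test, TMM scaling, expression filter by group) in 1 model of the 6 groups over all 24 libraries, which left 18 residual degrees of freedom and 15618 genes. The common dispersion gave a biological coefficient of variation of 0.343. Benjamini-Hochberg adjustment ran over all genes tested, at a threshold of 0.05, and a test against a fold of 1.5 was added. For a gene with no count in a group, the fold is a bound against 3 counts per library; with 1 to 3 counts over a group, it is a ratio with an exact 95% counting interval. The procedure was tested on simulated counts.

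The libraries compared, the 44 gene lists with their members, and the tests were chosen with earlier results of these data known. Genes were named by rule: the sort markers, the 12 of largest fold change in each direction among protein-coding genes with at least 20 CPM and no overlap, in each list up to 5 members with the majority, 2 against it and 3 that did not pass (at least 5 CPM), and the 10 most abundant genes. Some genes that this rule names are not reported here. Chosen after their values were seen were Btk, Cacna2d3, Cbfb, Cdh5, Ikzf1, Il10ra, Il3ra, Kdr, Kitl, Lcp1, Mecom, Mpo, Myb, Neurl3, Pou5f1, Rag1, Rag2, Rhox9, Runx1, Spi1, Vwf. Alternatives were RLE and upper-quartile scaling, removal of globin genes, no filter, a fit of the compared libraries alone, DESeq2 1.42.0, a replicate block and leaving out each of the 8 libraries.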

Additional observations from a re-analysis of the deposited data

Results flagged for a closer look

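Cacna2d3 was singled out because its population contrast differed between the antibodies (adjusted p = 0.0314 for the difference in edgeR's quasi-likelihood test, over all genes tested). Its mean was 0 CPM in Kit+ CD45+ libraries and 4.09 CPM in Kit- CD41+ libraries under anti-Dll4, at a low depth, and its contrast under IgG did not pass. The difference was not called with the compared libraries only, with a replicate block, or without any 1 of Kit+ CD45+ replicates 1 and 3 and Kit- CD41+ replicates 3 and 4.

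In 18 of 175 groups of 4 libraries, 1 library lay far from the other 3 (Dixon's test). By chance the test flags about 1 in 20 groups if values are normal and groups independent. Genes near 0 counts, and genes read in the same libraries, do not meet this, so 18 of 175 cannot be held against that rate. Several of the 18 rest on few reads in 1 library beside none or almost none in the others. C1qa, Ccl3 and Ccl4 each had 0.111 CPM in replicate 4 of Kit- CD41+ cells, Flt4 0.0855 CPM in replicate 1, Ctss 0.200 CPM and Hlf 0.301 CPM in replicate 3, and Dll4 0.708 CPM in replicate 2. In Kit+ CD45+ cells Gp6 had 0.305 CPM and Serpinb2 0.0762 CPM in replicate 3, and Tubb1 1.36 CPM in replicate 2. At higher levels, Kit+ CD45+ replicate 3 was high in Cdkn2d (97.6 CPM) and replicate 2 in Stab2 (51.0 CPM), and replicate 1 was low in F2rl2 (1.4 CPM) and in the second principal component (-65.5). Kit- CD41+ replicate 4 was high in Idi1 (32.5 CPM) and Prrx1 (15.4 CPM) and low in the summed endothelial genes (487 CPM), and replicate 2 was low in Il1b (0.177 CPM).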

How the results depend on the processing

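The counts of higher and lower genes, and those past a fold of 1.5, stayed within 1.5 times of 3082, 2733, 1890 and 1547 under every alternative run. Leaving out 1 library gave 2730 to 2947 higher, 2375 to 2549 lower, and 1675 to 1833 and 1378 to 1493 past the fold. The number of genes whose contrast differed between the antibodies was 0 with the compared libraries only, 5 with DESeq2, and 0 to 1 leaving out a library; the cause was not tested. Of 88 counts in gene lists (44 lists, 2 directions), 56 stayed within 1.5 times under all alternatives. Of 223 genes in the text, 3 lost and 11 gained the call under at least 1 alternative, and no called value changed sign. Leaving out 1 library ended the call of Runx1 (without Kit+ CD45+ replicate 2), Slc2a1 (without Kit+ CD45+ replicate 3) and Mki67 (without Kit+ CD45+ replicate 1 or 3 or Kit- CD41+ replicate 4). It brought past the threshold Angpt1 (adjusted p = 0.0485 in edgeR without Kit+ CD45+ replicate 2), Tie1 (0.0465 without Kit+ CD45+ replicate 4) and Gja4 (0.0375 without Kit+ CD45+ replicate 2, 0.0379 without Kit- CD41+ replicate 4). RLE scaling did so for Gja4 (0.0459) and Fcer1g (0.0484). The median fold change over all genes moved between 0 and 0.064 (log2). In the window of 150 bases before the start, 10.4% of promoters of higher genes, 6.32% of lower ones and 7.13% of all held the PU.1 letters, and 5.41%, 6.88% and 5.22% the GATA letters. With globin genes removed, globins themselves gave no value.

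The main fit did not pair libraries by replicate number. Deviations of same-numbered libraries correlated weakly but all positively, at 0.086, 0.014, 0.095 and 0.152. Those of unlike-numbered libraries correlated at -0.103 to 0.044. Replicates 1, 3 and 4 correlated best with their own number. The library names in the count data also begin alike for same-numbered IgG libraries of both populations. The labels do not explain these names, and whether the numbers mark pairs was not tested. A replicate block gave 3210 higher and 2928 lower genes, 1843 and 1598 past the fold, and 0 genes that differed between the antibodies. Depth limits genes near 3 counts per library (0.231 CPM in Kit+ CD45+ cells, 0.289 CPM in Kit- CD41+ cells): a gene with no count there was not detectable at this depth.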

Other observations

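The rule for the most abundant genes named a few genes not described so far. Tmsb4x, which binds actin monomers, stood at 3787, 7552, 6414 and 8094 CPM in Kit+ CD45+ libraries and 15181, 16597, 17656 and 20235 CPM in Kit- CD41+ libraries (log2 fold change -1.43, SE 0.25). Actb, actin itself, stood at 3163, 3770.2, 3275 and 3763 CPM in Kit+ CD45+ libraries and 5737, 5869, 5496 and 5775 CPM in Kit- CD41+ libraries (-0.71, SE 0.10). Malat1, a nuclear long noncoding RNA, stood at 3416, 4258, 3779.9 and 3885 CPM in Kit+ CD45+ libraries and 7749, 9788, 10249 and 11147 CPM in Kit- CD41+ libraries (-1.34, SE 0.20); another annotated gene overlaps it, so reads of both cannot be told apart. Fth1, the ferritin heavy chain, had 1311, 4273, 3068 and 4657 CPM in Kit+ CD45+ libraries and 3172, 3639, 4542 and 5611 CPM in Kit- CD41+ libraries (-0.35, SE 0.34, adjusted p = 0.454).

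Kit+ CD45+ replicate 1 differed from the other 3 libraries of its group in both directions. Neurl3, a ubiquitin ligase, had 93.3, 19.5, 40.9 and 21.7 CPM in Kit+ CD45+ libraries and 4.19, 3.90, 4.71 and 2.55 CPM in Kit- CD41+ libraries, and Ltb, lymphotoxin beta, 49.96, 2.12, 13.3 and 5.83 CPM in Kit+ CD45+ libraries and 5.22, 7.44, 6.11 and 4.66 CPM in Kit- CD41+ libraries, both with replicate 1 as the highest library. The stem and progenitor list summed to 2629, 1650.1, 2184 and 1968 CPM in Kit+ CD45+ libraries, against 808 to 996 CPM in Kit- CD41+ libraries, whereas the chemokine list summed to 359, 2185, 1297 and 2077 CPM in Kit+ CD45+ libraries, against 19.9 to 35.6 CPM in Kit- CD41+ libraries. The labels give nothing that sets this library apart.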
